A study of Mus musculus with 6 samples.

Results

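Genes of the postsynaptic scaffold and of the CaMKII kinase were compared in the hippocampus of 3 Dp(11)17/+ mice and 3 +/+ mice. The set lists 32 genes by name, in 9 families, and each gene was read from its brightest probe set, by the mean of all 6 arrays, among those annotated to that symbol alone. By this rule 29 of the 32 genes were measured, of 18193 genes in all, and Shank2, Lrrc7 and Magi2 were not analysed here because they have no such probe set in the annotation used. The 29 genes have 81 probe sets.

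Dp(11)17/+ mice have 1 chromosome 11 with a duplicated segment, and according to the series title they model Potocki-Lupski syndrome, which in humans follows from duplication of the matching region and affects development. The +/+ mice have the usual copy number and share the C57BL/6-Tyr c-Brd background, on which both groups were kept. All 6 mice were labelled male and aged 11 to 14 weeks. By the sample records, each array held hippocampus RNA of 1 mouse on Affymetrix mouse expression arrays. The duplication is in the germ line, so every cell carries it, and the labels give no information on litters, so litter cannot be told apart from genotype. The protocol for RNA extraction names several organs, and hippocampus is not among them. The labelling protocol speaks of pools. Tissue and the single mouse per array were taken from the sample records, and differences between arrays are read on that basis.

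At an excitatory synapse, the receptors for glutamate are held opposite the release site by a dense protein mesh called the postsynaptic density. Its scaffold proteins are stacked in layers, with the Dlg family next to the membrane, the Dlgap family below it, and Shank and Homer proteins deeper, where they reach the actin skeleton of the spine. CaMKII, a kinase switched on by calcium and calmodulin, is among the most abundant proteins of this structure and is required for long-term potentiation in the hippocampus.

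The values are log2 signals per probe set, so a difference of 1 is a doubling, and the level of 1 probe set cannot be set against that of another. Array medians were between 3.74 and 3.79, and a mean of 6 or more was used as the floor for a bright probe set. Genes of the duplicated segment were above wild type in the mice labelled as duplication, and Alkbh5, the one with the largest difference of the 6 checked, averaged 8.65 ± 0.01 in Dp(11)17/+ and 7.90 ± 0.18 in +/+ mice (SD, n = 3 each). Dp(11)17/+ replicate 1 went against its label, with a log2 value of 9.13 for Xist, the RNA of the inactive X chromosome in females, against 3.06 to 3.69 in the other 5 mice. Its Y-linked Eif2s3y was at 2.48 against 5.41 to 6.01 in the other 5, and Kdm5d at 2.47 against 4.70 to 5.06. Y-linked Uty, dim in all mice, was at 3.06 against 3.17 to 3.55. These values look like those of a female, so sex appears mixed within the duplication group, and the mouse was kept under its label. Markers of cell types differed between animals in the duplication group and, for choroid plexus, also in the wild-type group. The mean over 6 markers of CA1 pyramidal cells was 7.49, 8.50 and 6.72 in Dp(11)17/+ replicates 1, 2 and 3, against 8.05 to 8.29 in +/+ mice, and that over 7 markers of dentate granule cells was 5.07, 6.82 and 3.79, against 5.98 to 6.25. Markers of striatal projection neurons, 13 genes, averaged 6.78, 5.76 and 7.50 in the same 3 mice, against 5.68 to 6.13 in +/+ mice, and 11 markers of thalamus and habenula averaged 5.07, 4.89 and 7.73, against 4.72 to 5.13. Markers of CA3 pyramidal cells, 5 genes, averaged 5.61, 5.84 and 6.01 in Dp(11)17/+ mice, against 5.81 to 6.03 in +/+ mice. Markers of choroid plexus, 5 genes, averaged 7.62, 5.21 and 7.62 in Dp(11)17/+ mice, against 8.55, 5.02 and 5.10 in +/+ mice. Over 8 genes of neurons in general the means were 10.28 to 10.62 in Dp(11)17/+ and 10.37 to 10.47 in +/+ mice. In such bulk tissue, fewer cells of a type and less RNA per cell cannot be told apart, and the part of these marker differences in the results below was not tested.

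None of the 29 measured genes passed the test between the genotypes. The limma test, adjusted by Benjamini-Hochberg over 45037 probe sets, called 0 of the 29 genes and 0% of all genes, and the smallest adjusted p was 0.994. Alkbh5, a gene of the duplicated segment, was not called either, with an unadjusted p of 0.000152 by limma and an adjusted p of 0.994. The adjusted test thus missed a gene with an extra copy, and its lack of calls says little about small differences. At an unadjusted p under 0.05 it gave 0 of the 29 genes, against 3.17% of all genes, and a plain equal-variance statistic also gave 0 of the 29, against 3.78% of all genes. In 0 of the 29 genes did all Dp(11)17/+ mice lie on one side of all +/+ mice, against 8.29% of all genes. The log2 fold change was positive in 19 genes and negative in 10, or 65.5% positive against 41.7% of all genes. Genes are not independent, and this share was not tested. The median was 0.04 over the 29 and -0.02 over all 18193 genes. The median of 0.04 is within the spread between mice, whose SD for the median over the members was 0.06. Without +/+ replicate 1 the median was -0.01.

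What the arrays could resolve is given by the 95% intervals of the log2 fold changes. All 29 held 0, and 18 of the 29 lay wholly inside 1.5-fold in both directions, or 0.58 on the log2 scale. For the other 11 genes the interval also held a change of 1.5-fold in at least 1 direction. The interval was narrowest for Baiap2, from -0.20 to 0.20, and widest for Camk2d, from -1.44 to 1.94.

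**Figure D1:**
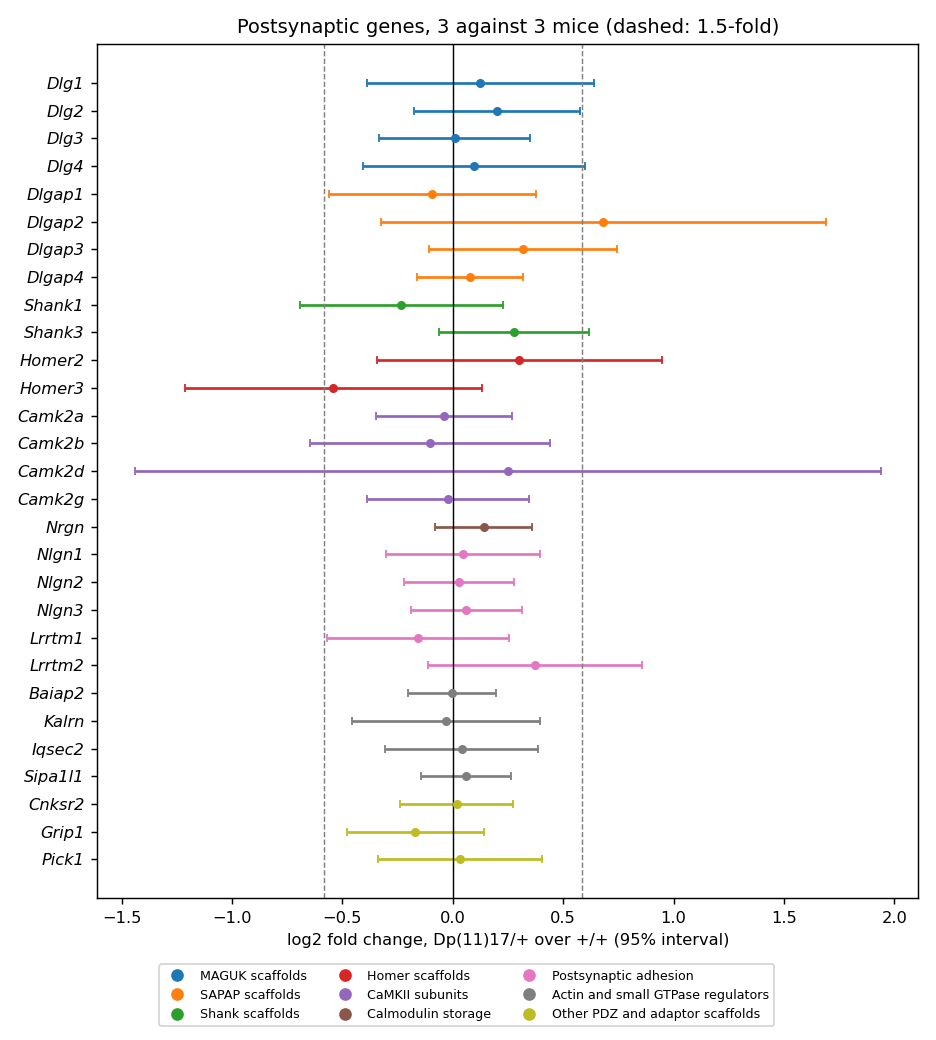
Log2 fold change, Dp(11)17/+ over +/+, of each of the 29 measured genes (points, coloured by family) with its 95% interval from the limma fit on 3 mice a group (bars). Dashed lines mark 1.5-fold, or 0.58, and every interval crosses 0, with those of Camk2d, Dlgap2 and Homer3 among the wide ones.

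The Dlg genes encode the membrane-associated scaffolds that bind receptor tails through PDZ domains. Dlg1 had log2 values of 9.25, 8.59 and 9.48 in Dp(11)17/+ replicates 1, 2 and 3, against 8.99, 9.10 and 8.87 in +/+ replicates 1, 2 and 3. The duplication mice lay on both sides of the wild-type mice, with replicate 2 below all of them and the other two above all of them, and the log2 fold change was 0.12 (SE 0.22, unadjusted p = 0.589 by limma). Dlg4, the main scaffold of mature excitatory synapses, had log2 values of 9.04, 9.04 and 8.87 in Dp(11)17/+ mice, against 8.51, 8.75 and 9.39 in +/+ mice. Here the spread was in the wild-type group, whose replicate 3 was the highest of the 6 mice, and the log2 fold change was 0.10 (SE 0.21). Dlg2 averaged 8.44 ± 0.29 in Dp(11)17/+ and 8.24 ± 0.15 in +/+ mice (SD, n = 3 each), a log2 fold change of 0.20. Dlg3, which is X-linked, averaged 8.55 ± 0.28 and 8.54 ± 0.09 in the same order, a log2 fold change of 0.01 whose sign turned under another scaling of the arrays.

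The Dlgap proteins bind the guanylate kinase domain of the Dlg scaffolds and connect them to Shank. Dlgap1 had log2 values of 9.15, 9.45 and 8.76 in Dp(11)17/+ mice, against 9.48, 9.16 and 8.99 in +/+ mice. The groups overlapped over most of their range, with a log2 fold change of -0.09 (SE 0.20), and 5 of its 6 probe sets, this one included, were negative. Dlgap3, of which loss in mice causes compulsive grooming through striatal circuits, had log2 values of 7.99, 7.55 and 8.14 in Dp(11)17/+ mice, against 7.35, 7.56 and 7.81 in +/+ mice. Replicates 1 and 3 of the duplication group were the highest of the 6 mice and replicate 2 lay among the wild-type mice, with a log2 fold change of 0.32 (SE 0.18, unadjusted p = 0.120 by limma). The 2 mice with high Dlgap3 are those with high striatal markers, with means of 6.78 and 7.50 against 5.68 to 6.13 in +/+ mice. They also had the lowest CA1 and dentate means of the 6 mice, and a link of Dlgap3 to any marker list was not tested. Without those 2 mice, the highest for Dlgap3, the log2 fold change had to shrink, and it was -0.03.

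Dlgap2 gave the largest log2 fold change of the 29 genes, 0.68 (SE 0.43, unadjusted p = 0.153 by limma), at a mean of 5.75, below the floor of 6. Homer3 and Camk2d, with means of 4.59 and 4.03, were below it too, and above the floor the largest log2 fold change was 0.37, in Lrrtm2. The log2 values of Dlgap2 were 6.50, 5.75 and 6.03 in Dp(11)17/+ mice, against 5.92, 5.93 and 4.38 in +/+ mice. A single wild-type mouse, replicate 3, stood below the other 5, and without it the log2 fold change was 0.17. Dlgap4 averaged 8.72 ± 0.15 in Dp(11)17/+ and 8.64 ± 0.07 in +/+ mice (SD, n = 3 each), and its interval of -0.16 to 0.32 lay inside 1.5-fold.

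Shank proteins are the large scaffolds that join the Dlgap layer to Homer and actin, and loss of SHANK3 in humans causes Phelan-McDermid syndrome. Shank3 had log2 values of 8.63, 8.72 and 9.01 in Dp(11)17/+ mice, against 8.46, 8.33 and 8.74 in +/+ mice. This was the smallest unadjusted p of the 29 genes, 0.0939 by limma, with a log2 fold change of 0.28 (SE 0.14) and 1 duplication mouse above all wild-type mice. Without +/+ replicate 3 the log2 fold change was 0.39 (unadjusted p = 0.0270 by limma), and it was positive in each of the 17 alternative settings. Those settings reuse the same arrays. Shank3 has 1 probe set, so settings that change only the filter, the statistic or the probe set choice could not alter its value. Shank1 was dim, at 3.66 ± 0.07 in Dp(11)17/+ and 3.89 ± 0.41 in +/+ mice (SD, n = 3 each), near the median of all probe sets.

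Homer proteins tie Shank to metabotropic glutamate receptors and to calcium stores. Homer2 had log2 values of 8.25, 8.50 and 7.91 in Dp(11)17/+ mice, against 8.25, 8.20 and 7.31 in +/+ mice. Replicate 3 was the lowest mouse in each genotype, though replicate numbers match no mice between genotypes. The log2 fold change of 0.30 (SE 0.27) turned to -0.01 without +/+ replicate 3. Homer3 had log2 values of 3.94, 5.03 and 4.0 in Dp(11)17/+ mice, against 4.77, 4.74 and 5.08 in +/+ mice. Duplication replicates 1 and 3 were the lowest of the 6 mice, while replicate 2 lay within the wild-type range, and the log2 fold change was -0.54 (SE 0.29, unadjusted p = 0.0997 by limma). Those 2 mice also had the lowest CA1 marker means, 7.49 and 6.72 against 8.05 to 8.29 in +/+ mice. Their dentate means were the lowest too and their striatal means the highest, and a link of Homer3 to any marker list was not tested. With replicate 2 as the only duplication mouse the difference in Homer3 was 0.17, a shift that follows from leaving out the 2 lowest mice.

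**Figure D2:**
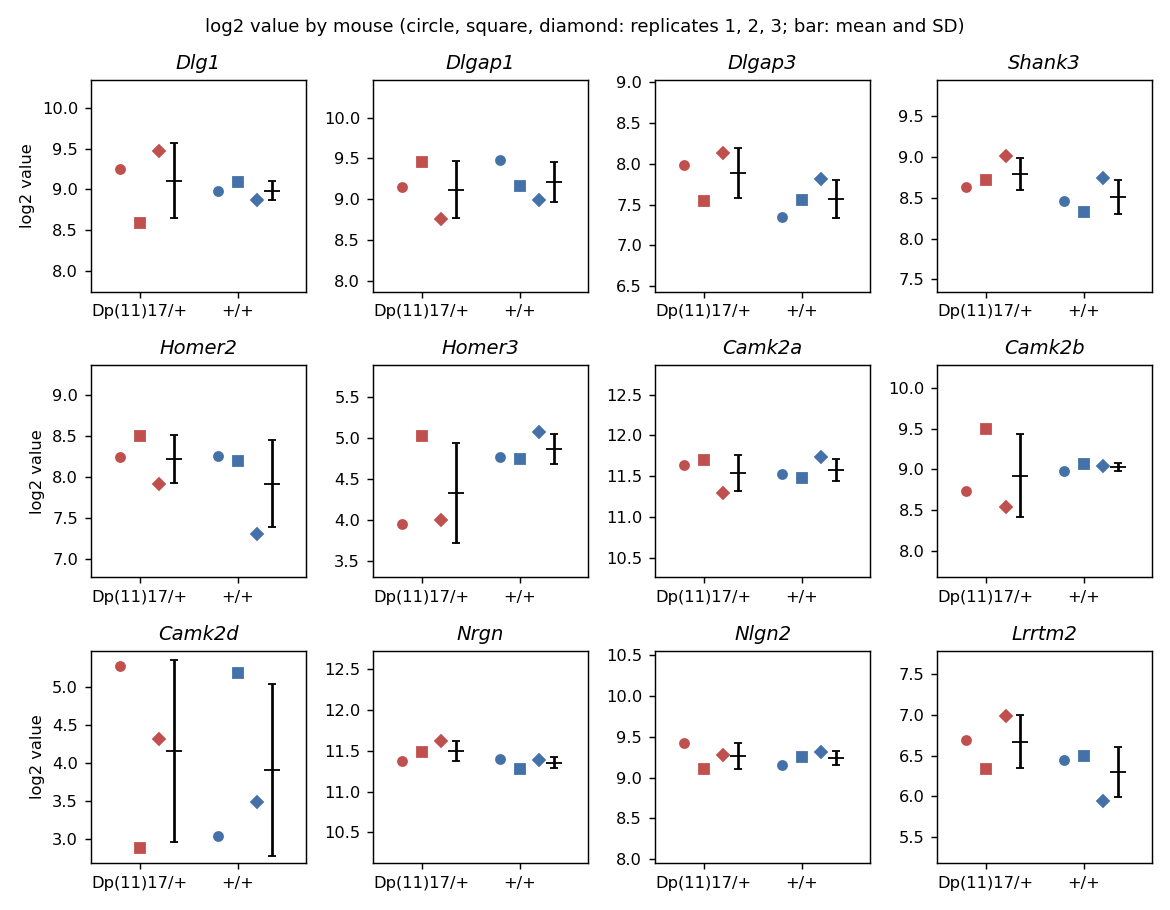
Log2 values of 12 genes in each mouse, with Dp(11)17/+ mice in red on the left and +/+ mice in blue on the right of each panel; circles, squares and diamonds are replicates 1, 2 and 3, and the black bars give the mean and SD (n = 3). The groups overlap in every panel, and for Dlg1, Homer3, Camk2b and Camk2d the square of the duplication group stands apart from its circle and diamond.

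CaMKII is a ring of subunits from several genes, with Camk2a and Camk2b supplying most of the kinase of forebrain neurons. Camk2a had log2 values of 11.63, 11.69 and 11.29 in Dp(11)17/+ mice, against 11.53, 11.47 and 11.73 in +/+ mice. The groups overlapped, and the log2 fold change was -0.04 (SE 0.13, 95% interval -0.35 to 0.27), with 3 of 6 probe sets positive. Camk2g averaged 8.57 ± 0.26 in Dp(11)17/+ and 8.59 ± 0.19 in +/+ mice (SD, n = 3 each), and the sign of its log2 fold change of -0.02 turned under another scaling.

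Of the duplication mice, replicate 2 was the highest for Camk2b and the lowest for Camk2d. Camk2b, whose subunit binds actin filaments, had log2 values of 8.74, 9.50 and 8.54 in Dp(11)17/+ mice, against 8.97, 9.07 and 9.04 in +/+ mice. Its wild-type mice lay within a narrow band, with an SD of 0.05, and the duplication mice lay outside it on both sides, with an SD of 0.51 and a log2 fold change of -0.10 (SE 0.23). Camk2d, the subunit best known from heart muscle, had log2 values of 5.27, 2.89 and 4.31 in Dp(11)17/+ mice, against 3.05, 5.19 and 3.49 in +/+ mice. High and low mice stood in both groups, so that the SDs of 1.20 and 1.13 were the largest of the 29 genes in both genotypes. The next brightest probe sets of Camk2d had their lowest value in Dp(11)17/+ replicate 2 as well, at 3.20 and 2.94, and 5 of its 7 probe sets had a positive log2 fold change.

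The sequences before the start sites of these subunit genes are shown because Dp(11)17/+ replicate 2 stood at opposite ends of its group for the 2 genes. Such positions are common, as replicate 2 was the highest duplication mouse in 38.7% of all genes and the lowest in 33.9%. Camk2d was also dim, at a mean of 4.03, and a link between the sequences and the values was not tested. They are the 250 bases before the annotated start from RefSeq on GRCm38.p6, read 5′ to 3′ on the strand of the gene, with every match to GGGCGG (the GC box, on either strand) in capitals. The Camk2b window is on chromosome 11, chr11:6065749-6065998, minus strand, and the Camk2d window is on chromosome 3, chr3:126596701-126596950, plus strand.
Camk2b: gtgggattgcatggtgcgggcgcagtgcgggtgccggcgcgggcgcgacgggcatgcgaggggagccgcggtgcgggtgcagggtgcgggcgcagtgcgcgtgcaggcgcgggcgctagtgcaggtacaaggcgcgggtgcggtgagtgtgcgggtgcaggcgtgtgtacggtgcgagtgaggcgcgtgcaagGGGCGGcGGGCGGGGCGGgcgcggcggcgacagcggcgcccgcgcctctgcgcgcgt
Camk2d: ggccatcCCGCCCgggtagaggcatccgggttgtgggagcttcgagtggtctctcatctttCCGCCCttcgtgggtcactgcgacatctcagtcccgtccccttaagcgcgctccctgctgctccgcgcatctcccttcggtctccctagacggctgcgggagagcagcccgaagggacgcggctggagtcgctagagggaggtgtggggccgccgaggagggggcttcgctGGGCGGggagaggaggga
Both windows hold 3 matches. In Camk2b they begin 57, 50 and 45 bases before the start, the last 2 sharing 1 base, and in Camk2d they begin 243, 189 and 18 bases before it. Neither window holds TATAAA (the TATA box), CACGTG (an E-box) or TGACGTCA (the cAMP response element) on either strand. Of 43 such windows of 25 of the 32 genes, 48.8% held GGGCGG, against 32.7% of all 32851 windows, and the G and C content had a median of 56.8% against 52.4%. TATAAA was in 14.0% of the windows of these genes and in 12.4% of all windows, CACGTG in 6.98% and 6.02%, and TGACGTCA in 0 of 43 and in 1.55% of all. These are matches of letters, and some genes have several windows.

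Neurogranin, encoded by Nrgn, holds calmodulin near the membrane of the spine and sets how much of it CaMKII can use. Nrgn had log2 values of 11.38, 11.49 and 11.62 in Dp(11)17/+ mice, against 11.40, 11.27 and 11.39 in +/+ mice. Replicates 2 and 3 of the duplication group were above all wild-type mice and replicate 1 was among them, with a log2 fold change of 0.14 (SE 0.09, unadjusted p = 0.177 by limma) and a 95% interval of -0.08 to 0.36.

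Neuroligins and LRRTM proteins sit in the postsynaptic membrane and bind neurexins across the cleft. Nlgn2, the neuroligin of inhibitory synapses, had log2 values of 9.42, 9.10 and 9.28 in Dp(11)17/+ mice, against 9.15, 9.26 and 9.31 in +/+ mice. The highest and the lowest of the 6 mice were both in the duplication group, and the log2 fold change was 0.03 (95% interval -0.22 to 0.28). Nlgn1, the neuroligin of excitatory synapses, averaged 6.89 ± 0.18 in Dp(11)17/+ and 6.85 ± 0.24 in +/+ mice, and X-linked Nlgn3 averaged 7.21 ± 0.11 and 7.15 ± 0.14 in the same order (SD, n = 3 each). All 3 neuroligins had 95% intervals inside 1.5-fold.

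Lrrtm2 had log2 values of 6.69, 6.33 and 6.99 in Dp(11)17/+ mice, against 6.45, 6.50 and 5.95 in +/+ mice. Duplication replicates 1 and 3 were above all wild-type mice and replicate 2 was among them, with a log2 fold change of 0.37 (SE 0.21, unadjusted p = 0.113 by limma). All 3 of its probe sets were positive, and with duplication replicate 2 alone the difference was 0.03. Lrrtm1 had a log2 fold change of -0.16 (SE 0.18), with Dp(11)17/+ replicate 1 the lowest mouse at 7.73.

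At their brightest probe sets, the regulators of actin and small GTPases that shape the spine had log2 fold changes between -0.03 and 0.06. Kalrn, an activator of Rac, had log2 values of 10.22, 10.75 and 10.37 in Dp(11)17/+ mice, against 10.71, 10.18 and 10.54 in +/+ mice. The ranges of both genotypes were almost the same, and the log2 fold change was -0.03 (SE 0.18), with 6 of its 8 probe sets positive. Baiap2, an adaptor that bends membranes and binds Rac, averaged 8.23 ± 0.10 in Dp(11)17/+ and 8.23 ± 0.05 in +/+ mice. Sipa1l1, a RapGAP of the spine, averaged 10.33 ± 0.10 and 10.27 ± 0.04 in the same order, and Iqsec2, an X-linked activator of Arf6, averaged 7.34 ± 0.28 and 7.30 ± 0.11 (SD, n = 3 each). At these probe sets all 4 intervals lay inside 1.5-fold, and the sign of Baiap2 turned under another scaling. Dimmer probe sets gave wider results. For Kalrn, 1 at a mean of 7.58 gave 0.30 (95% interval -0.04 to 0.63), with all Dp(11)17/+ mice above all +/+ mice. For Sipa1l1, with 3 of 4 probe sets positive, 1 at a mean of 7.0 gave 0.33 (95% interval -0.02 to 0.67). Both intervals reached past 1.5-fold.

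Among the other adaptors, Pick1, a PDZ and BAR domain protein that binds the receptor subunit GluA2, had log2 values of 6.28, 6.20 and 6.64 in Dp(11)17/+ mice, against 6.08, 6.47 and 6.46 in +/+ mice. The groups overlapped, with a log2 fold change of 0.03 (SE 0.16). Grip1, another PDZ scaffold of AMPA receptors, averaged 5.0 ± 0.16 in Dp(11)17/+ and 5.17 ± 0.20 in +/+ mice, a log2 fold change of -0.17. Cnksr2, an X-linked scaffold of Ras signalling, averaged 5.11 ± 0.17 and 5.09 ± 0.10 in the same order (SD, n = 3 each), and the sign of its difference of 0.02 turned under another scaling. All 3 had intervals inside 1.5-fold, at dim probe sets for Grip1 and Cnksr2.

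The position of the genes was also looked at. Dlg4, Nlgn2, Camk2b and Baiap2 are on chromosome 11, all 4 outside the duplicated segment between Cops3 and Rnf112 in the gene order of GRCm38.p6, and their log2 fold changes lay between -0.10 and 0.10. Dlg3, Nlgn3, Iqsec2 and Cnksr2 are on the X chromosome. In Dp(11)17/+ replicate 1, the mouse with a high Xist value, Nlgn3 was at 7.31, just above the 6.99 to 7.27 of the other 5 mice. The values of Dlg3, Iqsec2 and Cnksr2 in that mouse lay within the range of the other 5.

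Of the 29 genes, 21 have more than 1 probe set, and in 10 of the 21 all probe sets had the same sign. Across the 81 probe sets, 3 had an unadjusted p under 0.05 by limma and all 3 were positive, against 2.87% of all probe sets with 1 symbol, or 1.32% counting positive ones alone. They were dimmer probe sets of Camk2d (0.28, unadjusted p = 0.0220 by limma), Kalrn (0.28, unadjusted p = 0.0311) and Dlg4 (0.27, unadjusted p = 0.0325), with means of 3.22, 3.93 and 3.78. The brightest probe sets of the same genes gave 0.25, -0.03 and 0.10, and other probe sets of Camk2d and Kalrn were negative.

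The spread between mice of the same genotype was taken as the SD of each gene. Within the Dp(11)17/+ group the median SD was 0.26 over the 29 members and 0.12 over all genes. Within the +/+ group it was 0.18 over the members and also 0.12 over all genes. Among genes above the floor of 6, the medians in the Dp(11)17/+ group were 0.26 for 23 members and 0.14 for 7104 genes, and in the +/+ group 0.15 and 0.11. The SD was larger in the duplication group for 21 of 29 members, against 51.8% of all genes, and above the floor for 18 of 23 members, against 60.7% of genes. These are descriptions of the same 6 arrays, and the genes are not independent.

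**Figure D3:**
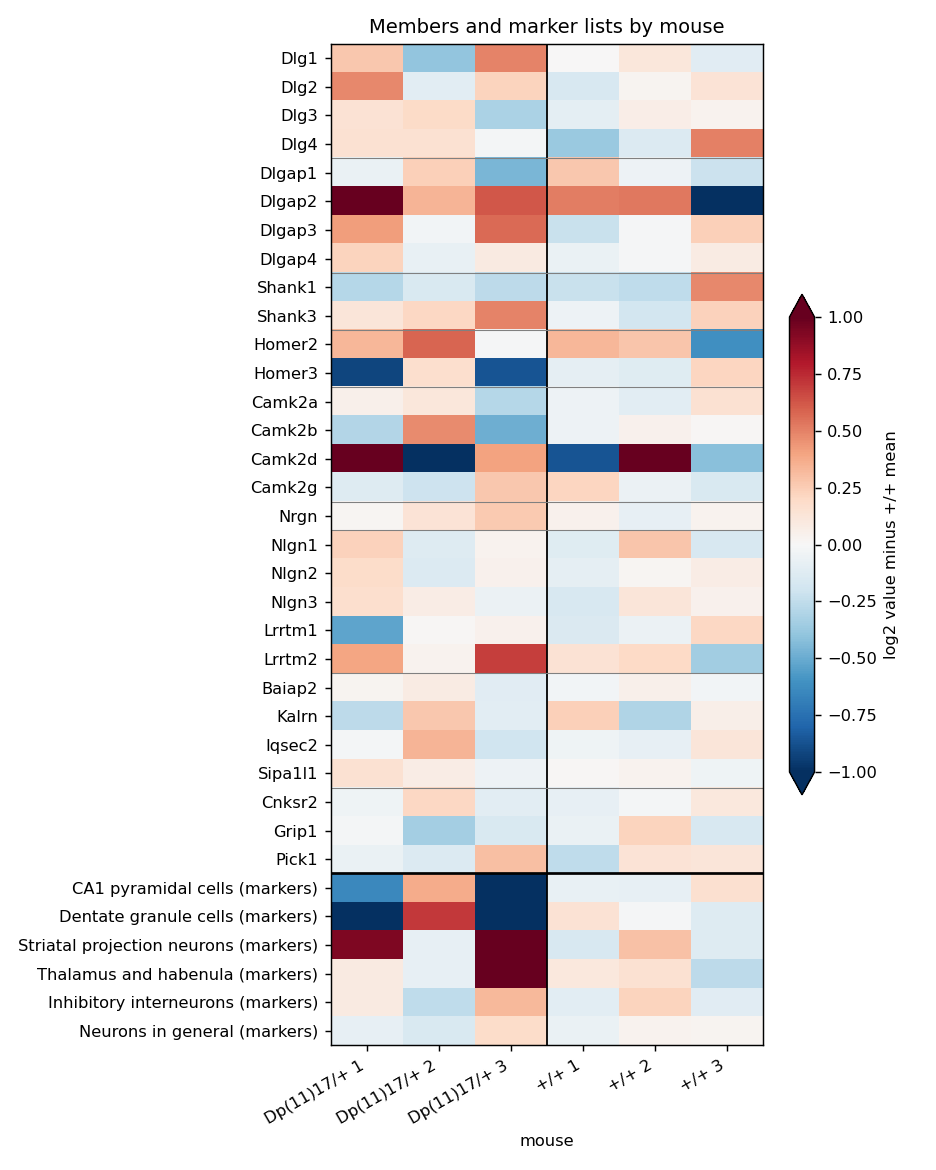
Log2 value minus the +/+ mean of the same gene, in colour from blue (below) to red (above), for the 29 genes in rows by family and, under the thick line, for the mean of 6 marker lists; columns are the mice, Dp(11)17/+ on the left. Colours are capped at 1 either way, and Dp(11)17/+ replicates 1 and 3 share the direction of Homer3, Camk2b, Dlg1 and Dlgap3, and of the CA1, dentate and striatal lists, while replicate 2 differs from them.

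The duplication mice did not move together. Relative to the +/+ mean, Dp(11)17/+ replicates 1, 2 and 3 stood at 0.27, -0.39 and 0.49 for Dlg1, at -0.29, 0.47 and -0.49 for Camk2b, and at -0.92, 0.17 and -0.86 for Homer3. Replicate 2 lay at -0.09 from the +/+ mean for both the striatal and the thalamic markers, and at 0.37 and 0.71 for the CA1 and dentate ones. Leaving it out had the largest effect on the counts among the 6 mice. The limma test then gave an unadjusted p under 0.05 for 6 of 29 genes, or 20.7%, against 8.15% of all genes, and 0 of 29 after adjustment, with a smallest adjusted p of 0.575. Those 6 were named after their values were seen. By limma, Dlg1 (0.38, unadjusted p = 0.0167), Dlg2 (0.35, unadjusted p = 0.0359), Dlgap3 (0.49, unadjusted p = 0.0167) and Lrrtm2 (0.54, unadjusted p = 0.0309) had positive log2 fold changes. Negative ones were those of Homer3 (-0.89, unadjusted p = 0.000372) and Camk2b (-0.39, unadjusted p = 0.00794). In that fit the groups did not overlap for 9 of 29 genes, or 31.0%, against 24.9% of all genes.

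The remaining duplication mice of that fit are the one with a high Xist value and the one with the highest striatal and thalamic markers, and the part of sex and of tissue in these 6 values was not tested. With each of them left out instead, 0 of 29 genes had an unadjusted p under 0.05, against 2.64% of all genes without replicate 1 and 2.15% without replicate 3. The count was also 0 of 29 without +/+ replicate 1, against 4.93% of all genes, and without +/+ replicate 2, against 2.79%. Without Dp(11)17/+ replicates 1 and 3, replicate 2 alone lay -0.39 from the +/+ mean for Dlg1, -0.10 for Dlg2, -0.03 for Dlgap3, 0.17 for Homer3 and 0.47 for Camk2b, each of opposite sign to the fit that left it out. Lrrtm2 was at 0.03. These 6 genes were taken from the fit without replicate 2, so a contrast with replicate 2 is largely built into that choice. Among wild-type mice, leaving out replicate 3 gave by limma 2 of 29 genes, Dlg4 (0.35, unadjusted p = 0.0213) and Shank3 (0.39, unadjusted p = 0.0270), or 6.90% against 2.26% of all genes, again with 0 after adjustment. With all 6 mice and array weights, 2 of 29 genes, Dlgap3 and Homer3, had an unadjusted p under 0.05 by limma, against 4.52% of all genes. With Dp(11)17/+ replicate 2 as the only duplication mouse, it lay outside the +/+ range for 15 of 29 genes, or 51.7%, against 48.8% of all genes.

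**Figure D4:**
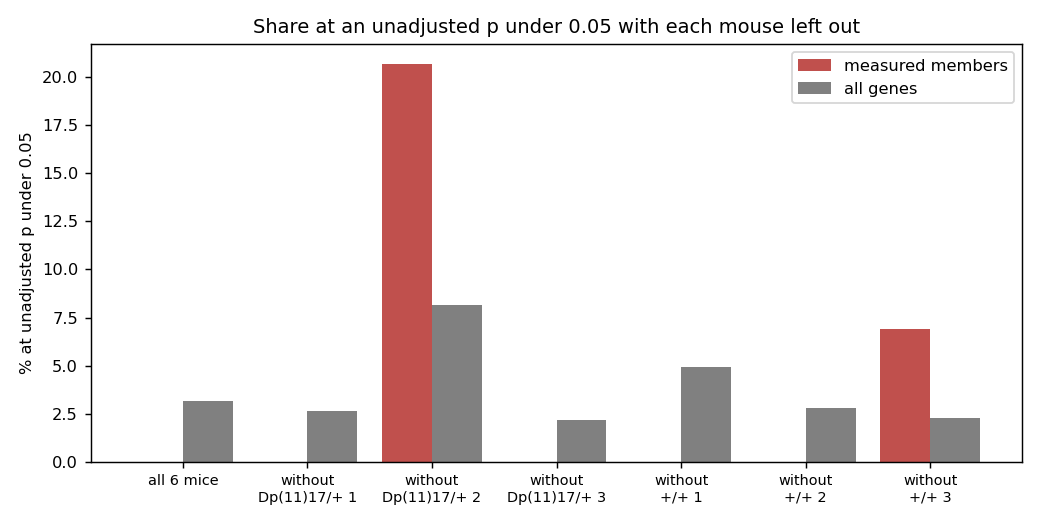
Share of genes at an unadjusted p under 0.05 in the limma test, in percent, for the 29 members (red) and all 18193 genes (grey), with all 6 mice and with each mouse left out in turn. The members are at 0 except without Dp(11)17/+ replicate 2, at 20.7% against 8.15%, and without +/+ replicate 3, at 6.90% against 2.26%.

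Other genes of the postsynaptic density were read from 5 further lists of 86 genes, of which 78 were measured. The limma test called 0 of the 78 after adjustment, and 0 at an unadjusted p under 0.05 against 3.17% of all genes, while the plain equal-variance statistic gave 0 and 2, against 3.78% of all genes at an unadjusted p under 0.05. The log2 fold change was positive in 44 and negative in 34, or 56.4% positive against 41.7% of all genes. The median was 0.04, against -0.02 over all genes. Among 16 genes of CaMKII and calmodulin signalling, Actn1 and Actn4, which encode actin-bundling actinins, had the smallest unadjusted p. Actn1 had log2 values of 8.29, 8.23 and 8.27 in Dp(11)17/+ mice, against 8.10, 8.09 and 8.11 in +/+ mice, so that the groups did not overlap, with a log2 fold change of 0.17 (SE 0.07, unadjusted p = 0.0546). Actn4 had a log2 fold change of 0.26 (SE 0.11, unadjusted p = 0.0548).

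Among 8 phosphatases and anchors, Ppp1r9a, the neurabin gene, and Akap9 had log2 fold changes of 0.08 and 0.18. Among 18 further scaffolds the smallest p belonged to Magi1 at 0.40 and Tjp1 at 0.14, and in Tjp1, which encodes a tight junction scaffold, all Dp(11)17/+ mice lay above all +/+ mice. Tjp1 and Actn1 were the 2 of 78 genes whose groups did not overlap, against 8.29% of all genes. Among 19 regulators of actin and small GTPases, Iqsec3 was at -0.29 and Tiam1, an activator of Rac, at 0.24. Among 17 adhesion genes, Slitrk5 and Slitrk1 were at 0.24 and 0.17. Without Dp(11)17/+ replicate 2, 22 of the 78 genes had an unadjusted p under 0.05 by limma, against 8.15% of all genes, with 0 after adjustment. That is a larger share than the 6 of 29 members, or 20.7%, in the same fit, so a raised share there is not particular to the members.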

How the data were processed

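Expression was measured on 6 Affymetrix mouse arrays, 1 per mouse by the sample records, 3 of Dp(11)17/+ and 3 of +/+. The deposited values are log2 signals per probe set, made by the authors with RMA per the submitters' processing notes, and were used as deposited. The software version, the genome build and the hybridization dates are not given in the sources used here, so batches could not be examined. Arrays give no counts, and their number limits the precision. Of the probe sets, 64 controls were left out and 45037 tested. A single symbol was given for 34945, several for 932 and none for 9160, and 34741 of the 34945 were found by Entrez identifier in a gene table of GRCm38.p6, which gave current symbols and chromosomes. Groups were compared by limma 3.58.1 in R 4.3.3 (lmFit and eBayes without trend, no covariate, two-sided, 7.11 degrees of freedom), with Benjamini-Hochberg adjustment over 45037 probe sets and a threshold of 0.05. The fit was tested on simulated data.

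The members and lists were chosen with earlier results of these data known, so no list was tested as a set. The naming rule gave every mouse's value for members at an unadjusted p under 0.05, for those whose groups did not overlap and for the brightest of each family; the other members given by mouse, and the genes of single leave-one-out fits, were chosen after their values were seen. In each further list the rule named the 2 genes with the smallest unadjusted p. Nothing in the labels says whether the mice were littermates. Sequences are from RefSeq on GRCm38.p6. Alternatives were other scalings (a repeat of quantile normalization, array medians set equal, cyclic loess), filters at a mean of 5 or 6, array weights, a trend with robust prior, the plain equal-variance statistic, other probe set choices, each mouse left out, and Dp(11)17/+ replicates 1 and 3 left out together.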

Additional observations from a re-analysis of the deposited data

How the results depend on the processing

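The count of members past the adjusted test was 0 in each of the 16 alternative fits that give p-values, and so was that of the further postsynaptic lists. Over all probe sets, 1 was called with an intensity trend and robust prior and 1 with array weights, and neither was a member; the cause was not tested. The median log2 fold change of the members was 0.03 to 0.08 over the alternatives that keep all mice, and -0.01 to 0.08 with 1 mouse left out, each less than 1 SD between mice (0.06) from the 0.04 with all mice. The number of members whose groups did not overlap was 0 to 9 with 1 mouse left out and 15 of 29 with Dp(11)17/+ replicate 2 as the only duplication mouse, against 48.8% of all genes, where fewer mice make overlap rarer by construction. Members at an unadjusted p under 0.05 by limma were 2 with array weights, Dlgap3 and Homer3, or 6.90% against 4.52% of all genes. With 1 mouse left out they were 0 to 6 of 29, against 2.15% to 8.15% of all genes. The sign of the log2 fold change changed in at least 1 leave-one-out fit for 19 of 29 members, and under at least 1 of 3 other scalings for 4, namely Baiap2, Camk2g, Cnksr2 and Dlg3. It was the same in all alternatives that held the gene for 6 members, Dlgap2, Grip1, Lrrtm2, Nrgn, Shank3 and Sipa1l1. Dlgap2 and Grip1 were not in the filter at a mean of 6. Filters and other statistics leave a log2 fold change as it was, as do probe set choices for genes with 1 probe set. Part of this stability thus follows by construction. No paired analysis was possible because the labels match no mice between genotypes. The replicate numbers used here follow the order of the samples in each group.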
